A study of Mus musculus with 6 samples.

Results

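The integrin and laminin genes, which encode receptors for the extracellular matrix and one of its main ligands, were measured in MC38 tumor cells recovered from mice. The members were the protein-coding genes of the table named as integrin alpha or beta subunits (Itga or Itgb with a number or subunit letter) or as laminin alpha, beta or gamma chains (Lama, Lamb or Lamc with a number). They came to 38 of 52636 genes: 19 entries for integrin alpha subunits, 8 for integrin beta subunits, and 5 alpha, 3 beta and 3 gamma laminin chain genes. Itgam, the alpha M subunit, was listed under 2 overlapping gene models, so the 38 entries carry 37 symbols. Of the 6 libraries, 3 carried the genotype label MC-38 M1E5-Zfx-KO-Thy1.2, in which Zfx had been edited with CRISPR ribonucleoprotein complexes, and 3 carried the label M1E5-Thy1.1, called control here. MC38 is a mouse colon adenocarcinoma line, and both groups are M1E5 cells that grew in Matrigel under the skin of female mice aged 6 to 10 weeks. RNA was taken from tumor cells sorted by flow cytometry after enzymatic digestion. The Thy1 label changed together with the genotype. The series title calls the targeted cells clones without giving their number, and the sources used here give neither mouse strain nor sort marker. The labels do not state whether each library is a mouse of its own, and p-values therefore measure spread among these libraries that may be technical.

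An integrin is a heterodimer of an alpha and a beta subunit, and the pairing sets its ligand. Alpha 3, alpha 6 and alpha 7 bind laminins, and alpha 1, alpha 2, alpha 10 and alpha 11 bind collagens. Alpha 5, alpha 8, alpha v and alpha IIb recognise the RGD motif of proteins such as fibronectin. The beta 2 and beta 7 integrins belong to leukocytes. Laminins are trimers of an alpha, a beta and a gamma chain that polymerise into the scaffold of basement membranes, and their alpha chain carries the main integrin binding site.

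Depth here means the reads over all genes, recovered from the deposited values. It was 37763096 to 65050909 reads in the Zfx-KO-labelled libraries and 42392848 to 42962578 in the controls. Zfx had 6.30, 6.41 and 6.22 log2 CPM in the Zfx-KO-labelled libraries, against 5.68, 5.88 and 5.46 in the controls, higher by 0.64 (SE 0.10, limma adjusted p = 0.000473). Its transcript was thus not lower under the knockout label. Reads per gene do not show whether the edit removed the protein, so every direction below refers to the label. Thy1, whose alleles read totals do not separate, averaged 8.67 ± 0.15 log2 CPM in the Zfx-KO-labelled libraries and 7.51 ± 0.04 in the controls (SD, n = 3 each). Of 13 epithelial markers looked at in these cells of a colon line, Cdx2 and Epcam were at or near 0. Cdx2 had 0 reads in all 6 libraries and Epcam at most 0.0523 CPM. The 13 markers summed to 16 to 22.5 CPM in the Zfx-KO-labelled libraries and 1.17 to 2.17 CPM in the controls. Of 6 tested, 2 rose, Krt8 and Krt19, beside 24.9% of all genes tested called higher. Krt8 carried most of the sum in the Zfx-KO-labelled libraries, with 13.9, 19.3 and 20.1 CPM there and 0.0472, 0 and 0.0702 CPM in the controls. Cdh1 had 216 reads in the Zfx-KO-labelled libraries and 180 in the controls and was not called. Endothelial markers summed to 126 to 155 CPM in the Zfx-KO-labelled libraries and 28.0 to 37.3 CPM in the controls (median log2 difference 2.95). Pecam1 held most of these sums, with 87.5, 112 and 116 CPM in the Zfx-KO-labelled libraries and 16.5, 18.3 and 23.5 CPM in the controls. Pericyte and smooth muscle markers summed to 592 to 765 CPM in the Zfx-KO-labelled libraries and 311 to 361 CPM in the controls. Most reads of that list were of Cspg4 and Pdgfrb, higher by 0.62 and 0.27, while its median log2 difference was 6.24 and 10 of its 12 genes were called at least 2-fold higher. Fibroblast markers summed to 5226 to 6664 CPM in the Zfx-KO-labelled libraries and 1223 to 1373 CPM in the controls (median log2 difference 4.20). Col1a1 and Col1a2 held most of this sum in the Zfx-KO-labelled libraries, and Dcn and Pdgfra in the controls. Dcn was higher by 0.19, and Pdgfra and Fbln1 were the 2 that fell, by 0.43 and 0.98. No gene of these 3 lists was at 0 reads in all 6 libraries. Erg and Abcc9 were at 0 reads in all controls, and the medians did not move when each was set to its bound, with 3 reads over the controls. Of 13, 12 and 10 genes tested, 12 endothelial markers rose and 1 fell, all 12 pericyte and smooth muscle markers rose, and 7 fibroblast markers rose and 2 fell. Over all genes tested, 24.9% were called higher and 19.5% lower, and 11.6% were called at least 2-fold higher. These markers moved in the same libraries as the genes below, and their part in those results was not tested. In bulk RNA a change in the number of cells of a type cannot be told apart from a change in RNA per cell.

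Levels are given as deposited, in log2 CPM (log2 of reads scaled to library size, with a floor of -5.49 where a gene had 0 reads), and differences are those of the Zfx-KO-labelled libraries minus the controls on that scale. They were tested with limma over 20094 genes and called at a Benjamini-Hochberg adjusted p under 0.05. Of the 38 entries, 35 passed the filter on low values. Of these 24 were called, 19 higher and 5 lower, beside 44.4% of all genes tested called, 24.9% higher and 19.5% lower. The groups did not overlap in 22 members, 16 with the Zfx-KO-labelled libraries above and 6 with them below, beside 54.1% of all genes, 30.7% above and 23.5% below. The 3 entries that did not pass were Itgad, with 0 reads in every library, Itgb6, a partner of alpha v, with 2 reads in the Zfx-KO-labelled libraries and 1 in the controls, and the second gene model of Itgam, with 0 reads in the Zfx-KO-labelled libraries and 3 in the controls. A called change of at least 2-fold was found in 18 members, 16 higher and 2 lower, beside 15.3% of all genes, 11.6% higher and 3.65% lower. The median difference was 0.87 over the 35 members and 0.094 over all genes tested. Of 24 integrin genes tested 12 rose and 4 fell (median 0.46), and of 11 laminin genes 7 rose and 1 fell (median 1.73). Ordered by RPKM (reads per kilobase of exon scaled to library size), the 6 highest members were Itgb1, Lamc1, Lamb1, Itga5, Itgav and Itgb5 in both groups, and in the controls Itga5 (48.8 ± 6.35 RPKM) and Itgav (43.6 ± 3.17) did not differ beyond their SDs. Itgb4 stood in place 7 of this order in the Zfx-KO-labelled libraries and 15 in the controls, and Itga6 in place 19 in the Zfx-KO-labelled libraries and 9 in the controls. Scaling the libraries to equal medians lowers all differences alike, with a median shift of -0.21, so small differences depend on that choice. Of all genes tested it left 3224 called higher and 6357 lower, against 5003 higher and 3924 lower as deposited.

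**Figure D1:**
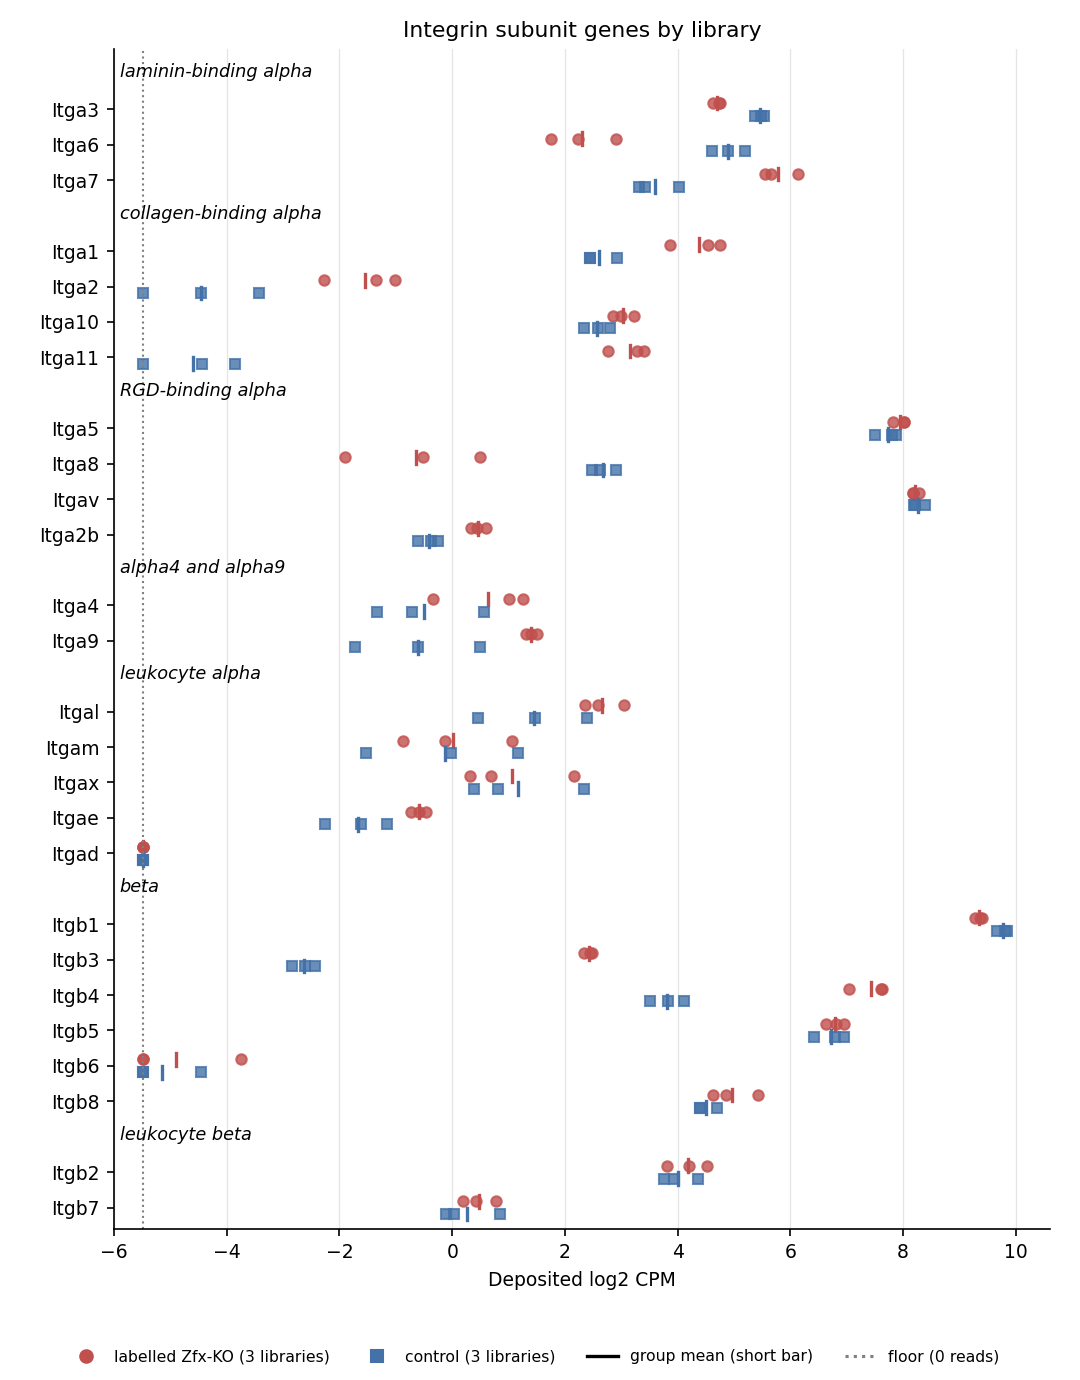
Deposited log2 CPM of the integrin subunit genes, 1 row per gene, with circles for the 3 Zfx-KO-labelled libraries above squares for the 3 control libraries, a short bar at each group mean and a dotted line at the floor. Itgb4 and Itgb3 stand apart between the groups with higher values in the Zfx-KO-labelled libraries, Itga6 and Itga8 with lower ones, and Itgb1, Itgav and Itga5 are the highest integrin genes of both groups.

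The laminin-binding alpha subunits moved in opposite directions. Itga6 (chr2:71786940-71856771, plus strand, GRCm38), which pairs with beta 1 or beta 4, had 2.90, 2.23 and 1.75 log2 CPM in the Zfx-KO-labelled libraries, against 5.19, 4.89 and 4.61 in the controls. It fell by 2.60 on the log2 scale, 6.07-fold (SE 0.25, limma adjusted p = 1.91e-05), and its groups did not overlap. Itga3, a partner of beta 1 known for binding laminin-332 and laminin-511, had 4.75, 4.62 and 4.74 log2 CPM in the Zfx-KO-labelled libraries, against 5.54, 5.37 and 5.48 in the controls. It fell by 0.76 (SE 0.07, limma adjusted p = 1.66e-05), again with every library labelled Zfx-KO below every control. Itga7, the laminin receptor subunit best known from skeletal and smooth muscle, had 6.13, 5.56 and 5.65 log2 CPM in the Zfx-KO-labelled libraries, against 4.03, 3.32 and 3.43 in the controls, and was the 1 of these 3 genes that rose. Its difference was 2.19 (SE 0.19, limma adjusted p = 9.85e-06), a 4.57-fold change. Per length, in RPKM, Itga7 made up 68.4 ± 2.58% of the summed level of these 3 genes in the Zfx-KO-labelled libraries and 16.1 ± 2.33% in the controls (SD, n = 3 each). Itga6 made up 5.91 ± 1.5% in the Zfx-KO-labelled libraries and 37.7 ± 3.48% in the controls. The sum itself was 19.6 ± 3.59 RPKM in the Zfx-KO-labelled libraries and 18.3 ± 2.46 RPKM in the controls, a difference within the SDs. The 2 genes that fell and the 1 that rose kept their calls in all 18 alternatives run.

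Itgb4, the beta subunit of hemidesmosomes, whose single known partner is alpha 6, rose while Itga6 fell. The gene lies at chr11:115974709-116008412, and its levels were 7.04, 7.61 and 7.63 log2 CPM in the Zfx-KO-labelled libraries, against 3.50, 3.83 and 4.12 in the controls. This was a difference of 3.61 (SE 0.18, limma adjusted p = 2.41e-07), or 12.2-fold, with replicate 1 the lowest of the Zfx-KO-labelled libraries and no overlap. Per length, Itgb4 stood at 27.4 ± 5.93 RPKM in the Zfx-KO-labelled libraries and 2.24 ± 0.472 RPKM in the controls. Itga6 stood at 1.18 ± 0.482 RPKM in the Zfx-KO-labelled libraries and 6.91 ± 1.37 RPKM in the controls (SD, n = 3 each). The ratio of Itgb4 to Itga6 per length was 12, 28.7 and 40.3 in the Zfx-KO-labelled libraries, against 0.213, 0.328 and 0.485 in the controls. The beta 4 transcript thus exceeded its partner in every library labelled Zfx-KO and was below it in every control. About 8.41% of the exon length of Itgb4 overlaps an antisense gene in the annotation, whose reads cannot be told apart without strand. Among other hemidesmosome genes, Plec, the linker to intermediate filaments, had 9.86, 9.75 and 9.87 log2 CPM in the Zfx-KO-labelled libraries, against 9.90, 9.98 and 9.98 in the controls. The difference was -0.12 (SE 0.06, limma adjusted p = 0.136). Dst, the dystonin gene whose epithelial isoform is a second linker, rose by 0.58 (SE 0.13, limma adjusted p = 0.00373).

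Itgb1, the common partner of most alpha subunits, was the highest member per length in both groups and was lower in the Zfx-KO-labelled libraries. It had 9.39, 9.36 and 9.27 log2 CPM in the Zfx-KO-labelled libraries, against 9.81, 9.84 and 9.67 in the controls. It fell by 0.43 (SE 0.07, limma adjusted p = 0.000495), 1.35-fold, without overlap. Of the summed beta subunit level per length, Itgb1 held 69.4 ± 1.78% in the Zfx-KO-labelled libraries and 83.4 ± 2.52% in the controls. Itgb4 held 11.2 ± 2.56% in the Zfx-KO-labelled libraries and 0.823 ± 0.215% in the controls (SD, n = 3 each). Itgb3, the beta subunit of the vitronectin receptor and of the platelet fibrinogen receptor, had 2.44, 2.48 and 2.34 log2 CPM in the Zfx-KO-labelled libraries, against -2.61, -2.85 and -2.43 in the controls. It rose by 5.05 (SE 0.24, limma adjusted p = 2.16e-07), with 744 reads in the Zfx-KO-labelled libraries and 18 in the controls. The ratio at equal depth was 37.5 (95% exact interval 23.6 to 63.7, counting error only). Per length, Itgb3 reached 0.922 ± 0.0448 RPKM in the Zfx-KO-labelled libraries, below Itgb5, the other main partner of alpha v, at 36.0 ± 4.03 RPKM. Itgb5 had 6.95, 6.63 and 6.81 log2 CPM in the Zfx-KO-labelled libraries, against 6.96, 6.42 and 6.79 in the controls. The groups overlapped, with a difference of 0.074 (SE 0.13, limma adjusted p = 0.677) that became -0.14 with equal medians. Itgb8, which pairs with alpha v and binds latent TGF-beta, had 4.63, 5.42 and 4.85 log2 CPM in the Zfx-KO-labelled libraries, against 4.4, 4.70 and 4.4 in the controls. The groups overlapped, and the difference of 0.47 (SE 0.17, limma adjusted p = 0.0497) was called narrowly. The call ended in 11 of 18 alternatives, among them equal medians (adjusted p = 0.229) and leaving out replicate 2 of the Zfx-KO-labelled libraries (difference 0.25, adjusted p = 0.134). Leaving out replicate 3 of the Zfx-KO-labelled libraries (adjusted p = 0.0594) or control replicate 1 or 3 (0.116 and 0.135) ended it too.

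All 4 collagen-binding alpha subunits were higher in the Zfx-KO-labelled libraries, by very different amounts. Itga11, the fibrillar collagen receptor subunit of fibroblasts (chr9:62677826-62783982), had 364, 260 and 686 reads in the Zfx-KO-labelled libraries and 1, 0 and 2 reads in the controls. Its difference was 7.74 (SE 0.42, limma adjusted p = 4.73e-07), which depends on the prior added to the control reads. The ratio of pooled reads at equal depth was 397 (95% exact interval 135 to 1925). Itga1, a receptor subunit for collagen IV and fibrillar collagens, had 4.54, 4.75 and 3.87 log2 CPM in the Zfx-KO-labelled libraries, against 2.92, 2.45 and 2.45 in the controls. It rose by 1.78 (SE 0.21, limma adjusted p = 8.29e-05), 3.43-fold. Among the Zfx-KO-labelled libraries, replicate 3 was lowest for Itga1 and highest for Itga11. Itga2, a collagen I receptor subunit of epithelium and platelets, was scarce, with 49 reads in the Zfx-KO-labelled libraries and 4 in the controls. Its levels were -2.27, -1.02 and -1.35 log2 CPM in the Zfx-KO-labelled libraries, against -3.43, -4.46 and -5.49 in the controls, a rise of 2.91 (SE 0.61, limma adjusted p = 0.00319). Itga10, known as a collagen receptor subunit of cartilage, had 2.85, 3.22 and 3.0 log2 CPM in the Zfx-KO-labelled libraries, against 2.59, 2.80 and 2.34 in the controls. Its groups stood apart by little, and the difference of 0.45 (SE 0.15, limma adjusted p = 0.0312) lost its call in 8 of 18 alternatives. With equal medians it was 0.23 (adjusted p = 0.205), and the call was also lost by leaving out replicate 2 or 3 of the Zfx-KO-labelled libraries (adjusted p = 0.118 and 0.0685) or control replicate 1 or 3 (0.0609 and 0.105). About 34.5% of its exon length is shared with another annotated gene on the same strand, so its level is uncertain. Per length, the 4 genes summed to 5.44 ± 0.327 RPKM in the Zfx-KO-labelled libraries and 1.76 ± 0.220 RPKM in the controls (SD, n = 3 each). Itga11 held 33.6 ± 9.02% of the sum in the Zfx-KO-labelled libraries and 0.292 ± 0.315% in the controls.

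**Figure D2:**
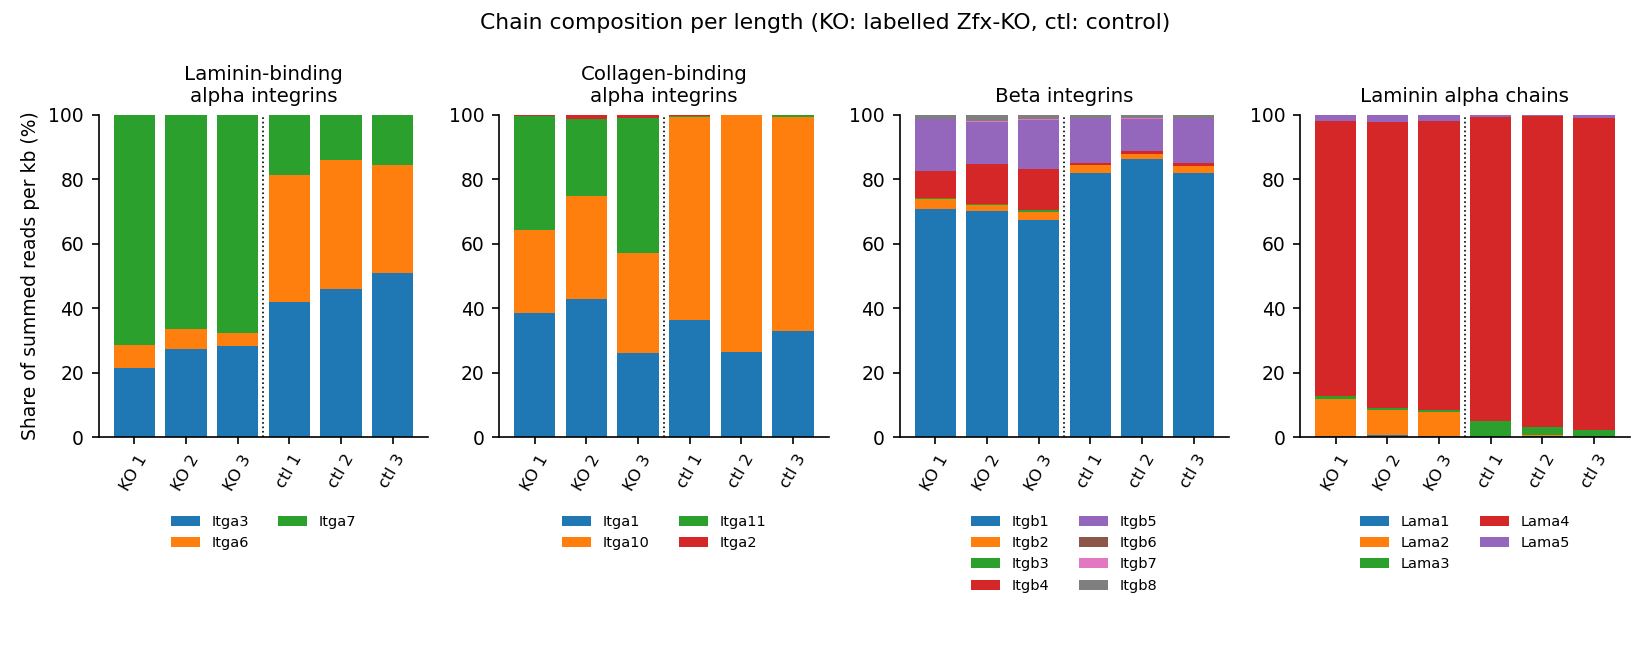
Share (%) of the summed reads per kilobase of exon held by each gene in the 6 libraries, those labelled Zfx-KO left of the dotted line and controls right of it, for laminin-binding alpha subunits, collagen-binding alpha subunits, beta subunits and laminin alpha chains. Itga7 takes the largest part of the first class in the Zfx-KO-labelled libraries and Itga3 in the controls, Itga11 is visible only left of the line, Itgb4 widens beside Itgb1, and Lama4 dominates the laminin alpha chains in all 6 libraries.

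The RGD-binding alpha subunits included the 2 highest alpha transcripts per length, Itga5 and Itgav, which were not called, and Itga8, which fell. Itga5, the classical fibronectin receptor subunit, had 8.01, 7.81 and 8.01 log2 CPM in the Zfx-KO-labelled libraries, against 7.81, 7.51 and 7.87 in the controls. The difference was 0.21 (SE 0.10, limma adjusted p = 0.101) with overlapping groups, and -0.0018 with equal medians. It was called when scaled by quantiles (0.30, adjusted p = 0.024) or without control replicate 3 (0.28, adjusted p = 0.0477). Itgav, the alpha v subunit, had 8.17, 8.29 and 8.17 log2 CPM in the Zfx-KO-labelled libraries, against 8.20, 8.38 and 8.21 in the controls. The values overlapped, with a difference of -0.053 (SE 0.07, limma adjusted p = 0.556), while with equal medians it was called lower at -0.27 (adjusted p = 0.00664). Per length, Itga5 held 44.5 ± 2.27% and Itgav 33.3 ± 3.01% of the summed alpha level in the Zfx-KO-labelled libraries. They held 42.2 ± 4.18% and 37.9 ± 4.42% in the controls (SD, n = 3 each). Itga8, a receptor subunit for nephronectin and fibronectin found in mesenchymal and contractile cells, had 0.48, -0.51 and -1.90 log2 CPM in the Zfx-KO-labelled libraries, against 2.49, 2.91 and 2.63 in the controls. It fell by 3.32 (SE 0.48, limma adjusted p = 0.00029), 9.96-fold. Replicate 3 of the Zfx-KO-labelled libraries was the lowest library, and without it the difference was -2.69. Itga2b, the platelet fibrinogen receptor subunit, had 0.34, 0.44 and 0.60 log2 CPM in the Zfx-KO-labelled libraries, against -0.60, -0.26 and -0.37 in the controls. It rose by 0.87 (SE 0.23, limma adjusted p = 0.0121), a call lost in 3 alternatives. These were quantile normalization (0.27, adjusted p = 0.387), leaving out replicate 3 of the Zfx-KO-labelled libraries (adjusted p = 0.0613) and leaving out replicate 1 of both groups (adjusted p = 0.0544). Platelet markers summed to 1.94 to 2.89 CPM in the Zfx-KO-labelled libraries and 2.40 to 2.90 CPM in the controls, with Gp1ba, Gp6 and Gp9 at 0 reads in all 6 libraries. Of the 4 tested, 0 were called by limma, 0 by voom and 1 at an unadjusted p under 0.05.

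Itga9, which binds tenascin-C, osteopontin and VCAM-1, had 1.5, 1.40 and 1.30 log2 CPM in the Zfx-KO-labelled libraries, against 0.50, -1.73 and -0.61 in the controls. The controls spread widely below the Zfx-KO-labelled libraries, and the difference was 2.01 (SE 0.46, limma adjusted p = 0.0048). Itga4, the alpha 4 subunit shared by leukocytes and some mesenchymal cells, had 1.25, 1.01 and -0.34 log2 CPM in the Zfx-KO-labelled libraries, against 0.57, -1.34 and -0.72 in the controls. The groups overlapped, and about 11.5% of its exon length lies over an antisense gene. Its difference of 1.14 (SE 0.52, limma adjusted p = 0.106) was called without replicate 3 of the Zfx-KO-labelled libraries (1.63, adjusted p = 0.0259) and without control replicate 1 (1.67, adjusted p = 0.0153).

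Among the leukocyte integrins Itgal and Itgae were called higher, while Itgb2, Itgam, Itgax and Itgb7 were not called. Itgb2, the beta subunit that pairs with the products of Itgal, Itgam and Itgax, had 4.52, 3.82 and 4.19 log2 CPM in the Zfx-KO-labelled libraries, against 4.36, 3.75 and 3.93 in the controls. The values overlapped, with a difference of 0.16 (SE 0.19, limma adjusted p = 0.514). Itgam, the alpha subunit of macrophages and neutrophils, had 1.06, -0.87 and -0.13 log2 CPM in the Zfx-KO-labelled libraries, against 1.16, -1.52 and -0.03 in the controls in its first gene model. Its exons are shared over 70.0% of their length with the second model, so the level is uncertain. Itgax, the alpha X subunit of dendritic cells and macrophages, had 2.16, 0.32 and 0.68 log2 CPM in the Zfx-KO-labelled libraries, against 2.34, 0.38 and 0.81 in the controls. Differences were 0.15 (SE 0.65, limma adjusted p = 0.878) for Itgam and -0.12 (SE 0.54, limma adjusted p = 0.882) for Itgax, and in both genes replicate 1 was the highest library of its group. Replicate 1 of each group was also the highest of its group in leukocyte markers, whose 10 genes summed to 72.8, 33.9 and 37.0 CPM in the Zfx-KO-labelled libraries, against 54.4, 13.7 and 27.9 CPM in the controls. Of these 10, Cd37, Cd48 and Arhgdib rose without overlap, by 2.92, 2.35 and 1.49 (limma adjusted p = 7.65e-06, 0.00125 and 0.0167), and the median difference was 0.22. Their part in the Itgal and Itgae results was not tested. The 10 macrophage markers summed to 181, 56.4 and 75.4 CPM in the Zfx-KO-labelled libraries and 170.3, 35.7 and 79.6 CPM in the controls. Of these macrophage markers, 0 were called by limma and 0 by voom, and 1 had an unadjusted p under 0.05. Itgb2 spanned 13.5 to 23.0 CPM over the 6 libraries. The leukocyte marker sum spanned 13.7 to 72.8 CPM and the macrophage marker sum 35.7 to 181 CPM. Each sum adds 10 genes, so these spans are not like measures. Itgal, the alpha L subunit of LFA-1, had 3.04, 2.36 and 2.59 log2 CPM in the Zfx-KO-labelled libraries, against 2.39, 0.46 and 1.48 in the controls. Replicate 2 of the Zfx-KO-labelled libraries lay below control replicate 1. It was called higher by 1.22 (SE 0.40, limma adjusted p = 0.0296), a call that 8 of 18 alternatives ended. Among these were equal medians (adjusted p = 0.0549) and leaving out replicate 1 or 3 of the Zfx-KO-labelled libraries (adjusted p = 0.0918 and 0.0545) or control replicate 3 (0.0665). Itgae, the alpha E subunit of intraepithelial T cells and some dendritic cells, had -0.73, -0.46 and -0.58 log2 CPM in the Zfx-KO-labelled libraries, against -1.16, -2.26 and -1.61 in the controls. There was no overlap, and the difference was 1.09 (SE 0.36, limma adjusted p = 0.0311), a call that ended in 9 of 18 alternatives. These included equal medians (adjusted p = 0.0693) and leaving out any 1 library other than control replicate 1 (adjusted p = 0.0565 to 0.0914). T and NK cell markers summed to 0.811 to 0.861 CPM in the Zfx-KO-labelled libraries and 0.116 to 0.425 CPM in the controls, with Cd3d and Nkg7 the 2 called higher of 6 tested. Neutrophil markers summed to 0.602 to 1.91 CPM in the Zfx-KO-labelled libraries and 0.442 to 1.86 CPM in the controls, with Elane and Mpo the 2 called higher of 4 tested. Over all genes tested, 24.9% were called higher and 30.7% stood above the controls without overlap. These shares belong beside the leukocyte, T and NK cell and neutrophil marker counts. Itgb7, the partner of alpha E and alpha 4, had 0.78, 0.20 and 0.43 log2 CPM in the Zfx-KO-labelled libraries, against 0.84, -0.10 and 0.04 in the controls. The values overlapped, with a difference of 0.21 (SE 0.29, limma adjusted p = 0.604). The part of leukocytes in these differences was not tested.

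**Figure D3:**
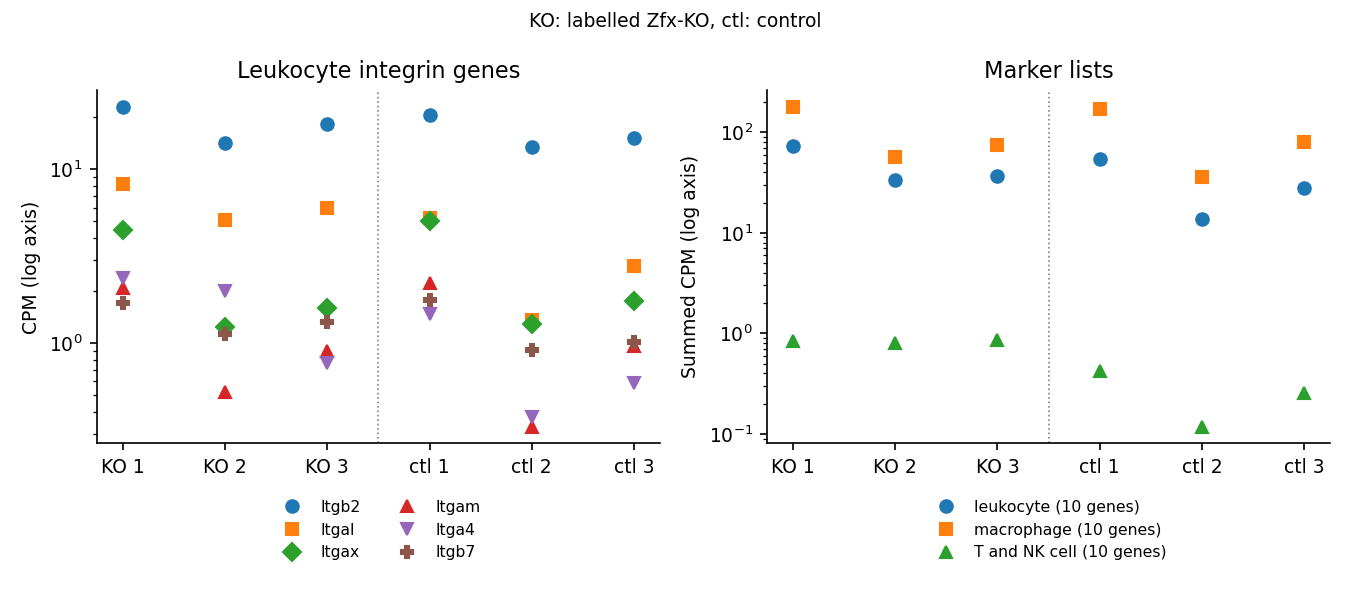
CPM of 6 leukocyte integrin genes (left) and summed CPM of 3 marker lists (right) in the 6 libraries, those labelled Zfx-KO left of the dotted line, on log axes. Replicate 1 of each group is highest in Itgb2, Itgal, Itgax and Itgam of its group and in the leukocyte and macrophage marker sums.

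Of the 5 laminin alpha chain genes, 4 rose in the Zfx-KO-labelled libraries, all but Lama3. Lama4, the alpha chain of laminin-411 made by endothelial and mesenchymal cells, had the highest level per length of the 5 in every library, with 6.22, 6.58 and 6.62 log2 CPM in the Zfx-KO-labelled libraries, against 3.95, 4.67 and 4.83 in the controls. It rose by 1.99 (SE 0.20, limma adjusted p = 2.41e-05), 3.97-fold, and control replicate 1 was the lowest library. Lama2, the alpha chain of laminin-211, which is known from muscle and nerve (chr10:26981285-27616843), had 611, 532 and 851 reads in the Zfx-KO-labelled libraries and 1, 4 and 0 reads in the controls. Its fitted difference of 8.19 (SE 0.50, limma adjusted p = 9.46e-07) was the largest of all members, at 8.81 without control replicate 2. This difference too depends on the prior added to the control reads. The ratio of pooled reads was 362 (95% exact interval 155 to 1117) for Lama2, against 397 (135 to 1925) for Itga11. The order of these genes is therefore not settled. Lama5, the alpha chain of laminin-511 in most adult epithelial and vascular basement membranes, had 1.78, 2.20 and 1.88 log2 CPM in the Zfx-KO-labelled libraries, against -1.95, -2.11 and -0.78 in the controls. The difference was 3.57 (SE 0.35, limma adjusted p = 2.18e-05). Lama1, the alpha chain of laminin-111 in early embryonic basement membranes, was scarce, with -1.08, 0.16 and -0.84 log2 CPM in the Zfx-KO-labelled libraries, against -3.10, -2.63 and -3.43 in the controls. It rose by 2.47 (SE 0.44, limma adjusted p = 0.00119). Lama3, the alpha chain of laminin-332 of epithelia, had 0.66, 0.02 and 0.57 log2 CPM in the Zfx-KO-labelled libraries, against 0.43, 0.30 and 0.23 in the controls. The groups overlapped, with a difference of 0.10 (SE 0.24, limma adjusted p = 0.77) that was -0.11 with equal medians. Summed per length, the alpha chains came to 16.8 ± 2.02 RPKM in the Zfx-KO-labelled libraries and 3.98 ± 1.13 RPKM in the controls (SD, n = 3 each). Lama4 held 87.9 ± 2.38% of this sum in the Zfx-KO-labelled libraries and 95.8 ± 1.33% in the controls.

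The promoters of the steepest rises, Itga11 and Lama2, are shown beside that of Itga8, the steepest fall, to show the sequence before a RefSeq start site. Each sequence is the 250 bases before the RefSeq start site on the gene's own strand in GRCm38.p6, with capitals marking every CG dinucleotide and every AGGCCT, a core described for the binding of ZFX to DNA.
Itga11: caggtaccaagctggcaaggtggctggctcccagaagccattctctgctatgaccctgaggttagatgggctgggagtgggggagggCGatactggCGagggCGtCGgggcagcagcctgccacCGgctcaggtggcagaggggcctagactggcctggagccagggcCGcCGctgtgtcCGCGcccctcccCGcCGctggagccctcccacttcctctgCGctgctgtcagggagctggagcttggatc
Lama2: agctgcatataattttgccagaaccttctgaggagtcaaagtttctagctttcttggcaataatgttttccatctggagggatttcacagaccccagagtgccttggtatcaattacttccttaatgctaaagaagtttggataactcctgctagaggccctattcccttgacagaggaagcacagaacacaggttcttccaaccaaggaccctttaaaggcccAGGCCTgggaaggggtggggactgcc
Itga8: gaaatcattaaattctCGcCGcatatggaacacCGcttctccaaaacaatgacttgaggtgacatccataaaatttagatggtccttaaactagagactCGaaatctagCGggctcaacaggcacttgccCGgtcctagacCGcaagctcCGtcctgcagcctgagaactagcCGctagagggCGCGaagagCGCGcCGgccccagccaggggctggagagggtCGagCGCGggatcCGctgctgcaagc

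The window of Itga11 is chr9:62677605-62677854 on the plus strand, that of Lama2 chr10:27616943-27617192 on the minus strand and that of Itga8 chr2:12301945-12302194 on the minus strand. In GENCODE the Lama2 gene begins farther upstream, at position 27619758, so its window lies inside that gene. What is said of Lama2 below holds for this window only. The 2 steepest rises differ in base composition, with 68.4% G or C and 12 CG dinucleotides for Itga11 and 47.2% and 0 for Lama2, while Itga8 has 56.4% and 18. Over all 32851 windows of the table the medians were 52.4% and 6. AGGCCT, which reads the same on both strands, stands once in the window of Lama2 and not in the other 2 windows shown. It was found in 3 of the 26 windows available for 23 members (Itga10, Itgb5 and Lama2) and in 8.70% of all windows. The GC box GGGCGG, searched on both strands, was found in 9 of the 26 windows and in 32.7% of all windows. TGANTCA, the element of AP-1 factors (palindromic apart from its N), was found in 1 and in 6.75%, and GGAATG, the element of TEAD factors, on both strands in 3 and in 12.6%. A match describes the letters of the window only.

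**Figure D4:**
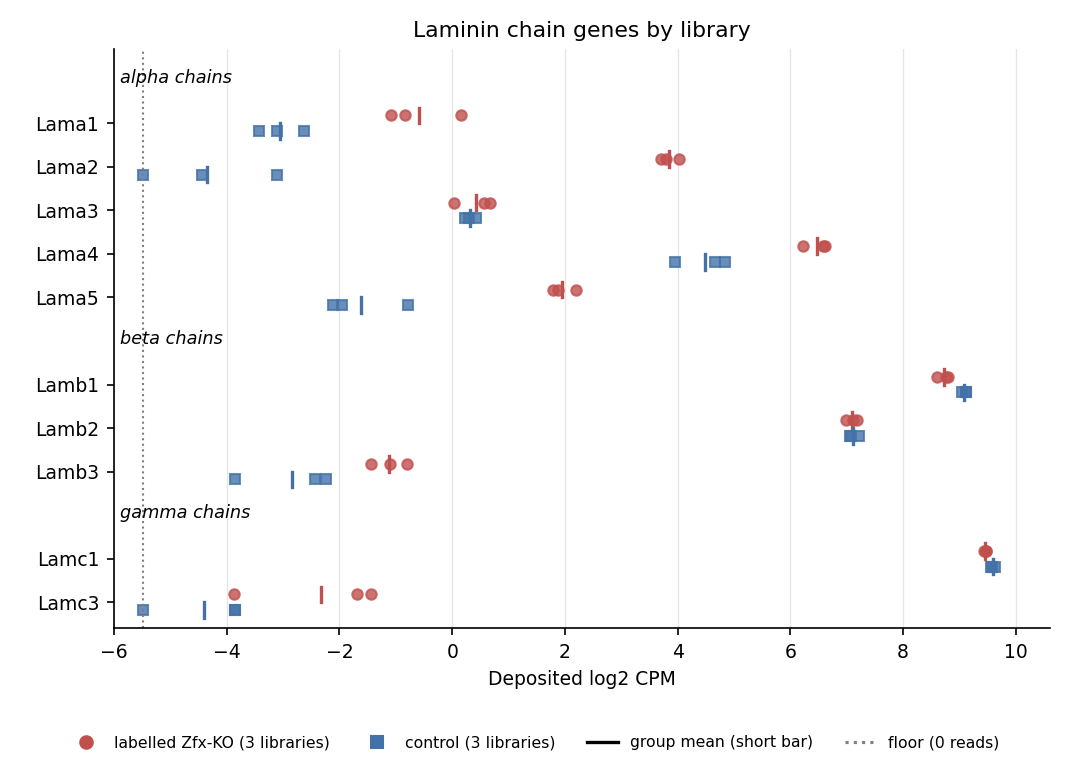
Deposited log2 CPM of laminin chain genes, 1 row per gene, with circles for the 3 Zfx-KO-labelled libraries above squares for the 3 controls, a short bar at each group mean and a dotted line at the floor. Lama2, Lama4 and Lama5 stand apart with higher values in the Zfx-KO-labelled libraries, while for Lamb1, Lamb2 and Lamc1, at the high end, the groups lie close together.

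The beta 1 and gamma 1 chains, the common partners of the alpha chains, stood above them per length in both groups, and Lamb1 fell. Lamb1 had 8.79, 8.61 and 8.76 log2 CPM in the Zfx-KO-labelled libraries, against 9.11, 9.04 and 9.11 in the controls. It fell by 0.37 (SE 0.06, limma adjusted p = 0.00098), 1.29-fold, the 1 laminin gene called lower. Lamc1 had 9.47, 9.47 and 9.43 log2 CPM in the Zfx-KO-labelled libraries, against 9.63, 9.55 and 9.58 in the controls. All its values in the Zfx-KO-labelled libraries were below the controls, yet the difference of -0.13 (SE 0.06, limma adjusted p = 0.088) was not called. It was called lower with equal medians (-0.34, adjusted p = 0.00117) and with quantile normalization, sample weights and voom (adjusted p = 0.0371, 0.0347 and 0.0247). Lamb2, the beta chain of vascular and synaptic laminins, had 6.99, 7.11 and 7.18 log2 CPM in the Zfx-KO-labelled libraries, against 7.06, 7.08 and 7.21 in the controls. The groups overlapped, with a difference of -0.026 (SE 0.07, limma adjusted p = 0.79) that was called lower with equal medians (-0.24, adjusted p = 0.0276). Lamb3, the beta chain of laminin-332, had -1.45, -0.81 and -1.10 log2 CPM in the Zfx-KO-labelled libraries, against -2.24, -3.86 and -2.43 in the controls. These came from 63 reads in the Zfx-KO-labelled libraries and 17 in the controls. The difference was 1.73 (SE 0.49, limma adjusted p = 0.016), and it lost its call with quantile normalization (1.00, adjusted p = 0.114) or without replicate 2 or 3 of the Zfx-KO-labelled libraries (adjusted p = 0.0615 and 0.0518). Per length, Lama3 stood at 0.125 ± 0.0282 RPKM and Lamb3 at 0.0871 ± 0.0200 RPKM in the Zfx-KO-labelled libraries. In the controls Lama3 stood at 0.114 ± 0.00820 RPKM and Lamb3 at 0.0260 ± 0.0148 RPKM (SD, n = 3 each). Of the summed beta chain level per length, Lamb1 held 74.7 ± 1.98% in the Zfx-KO-labelled libraries and 79.0 ± 0.908% in the controls (SD, n = 3 each). The ratio of Lama4 to Lamb1 per length was 0.163, 0.237 and 0.219 in the Zfx-KO-labelled libraries, against 0.0269, 0.0467 and 0.0499 in the controls. Lamc3, the gamma 3 chain, was near the floor, with 27 reads in the Zfx-KO-labelled libraries and 4 in the controls. Its levels were -1.45, -1.69 and -3.87 log2 CPM in the Zfx-KO-labelled libraries, against -3.85, -3.86 and -5.49 in the controls. Its groups overlapped, and the difference of 2.06 (SE 0.75, limma adjusted p = 0.0466) lost its call in 11 of 17 alternatives. It was 2.83 without replicate 3 of the Zfx-KO-labelled libraries, and was not called without replicate 1 or 2 of the Zfx-KO-labelled libraries or control replicate 3 (adjusted p = 0.149 to 0.171).

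**Figure D5:**
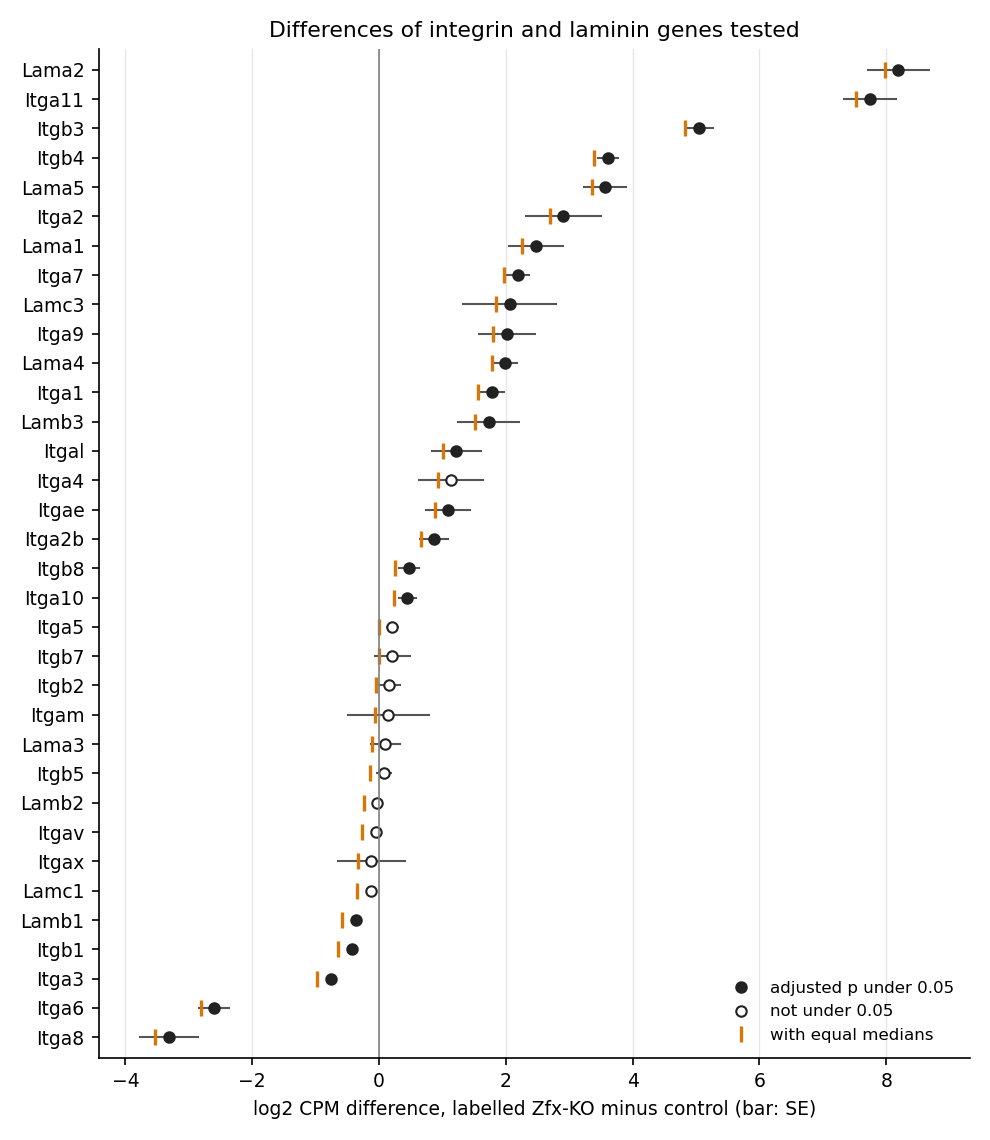
Difference in log2 CPM, Zfx-KO-labelled libraries minus controls, of integrin and laminin genes tested, sorted from the highest, with bars for the SE, filled circles for an adjusted p under 0.05, open circles for the rest, and a tick for the value with equal medians. Lama2 and Itga11 lead at 8.19 and 7.74, Itga8 and Itga6 are lowest at -3.32 and -2.60, and ticks cross 0 only for open circles.

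Of the basement membrane genes other than laminins, 12 of 20 tested were higher and 3 lower, with a median difference of 0.68. Over all genes tested, the shares were 24.9% higher and 19.5% lower and the median was 0.094. The genes with the smallest p were Smoc2, a calcium-binding matricellular protein, at 7.59, Col15a1, a collagen of the basement membrane zone, at 7.10, Col18a1, the precursor of endostatin, at 1.72 and Nid1, the nidogen that bridges laminin gamma 1 and collagen IV, at 1.22. Their limma adjusted p were 2.15e-07, 1.19e-06, 1.24e-06 and 5.96e-07, and Smoc2 had 987 reads in the Zfx-KO-labelled libraries and 2 in the controls and Col15a1 6408 reads in the Zfx-KO-labelled libraries and 50 in the controls. Nid1 had 7.39, 7.16 and 7.17 log2 CPM in the Zfx-KO-labelled libraries, against 6.03, 5.99 and 6.03 in the controls, without overlap. Nid2, the other nidogen gene, fell by 0.43 (SE 0.10, limma adjusted p = 0.00606). Col7a1 fell by 0.39 (SE 0.08, limma adjusted p = 0.00187). Of the 6 collagen IV genes, which form the network of basement membranes, Col4a1 and Col4a2 were the highest in log2 CPM. Col4a1 had a difference of -0.15 (SE 0.09, limma adjusted p = 0.214), and Col4a2 fell by 0.26 (SE 0.07, limma adjusted p = 0.0112), a call lost without replicate 1 of the Zfx-KO-labelled libraries (adjusted p = 0.0544). Col4a5 rose by 1.37 (SE 0.14, limma adjusted p = 2.21e-05), and Col4a3 and Col4a4 were scarce and rose by 3.87 and 3.66 (limma adjusted p = 0.000473 and 0.00057). Col4a3 had 66 reads in the Zfx-KO-labelled libraries and 2 in the controls and Col4a4 48 reads in the Zfx-KO-labelled libraries and 1 in the controls, and Col4a6, with 6 reads in the Zfx-KO-labelled libraries and 4 in the controls, was not called. Nid2, Col7a1, Col4a3, Col4a4, Col4a5, Col4a6 and the cell type markers given by name above were chosen for naming after their values were seen. Hspg2, the proteoglycan perlecan, had a difference of 0.14 (SE 0.06, limma adjusted p = 0.108) that was -0.074 with equal medians.

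Laminin receptors other than integrins, with hemidesmosome genes, had 6 of 14 tested higher and 3 lower, with a median difference of 0.12. Of all genes tested, 24.9% were higher and 19.5% lower, with a median of 0.094. Dag1, the laminin receptor dystroglycan, had 7.99, 7.98 and 8.01 log2 CPM in the Zfx-KO-labelled libraries, against 8.42, 8.33 and 8.46 in the controls. It fell by 0.41 (SE 0.06, limma adjusted p = 0.000199). Sdc1, the syndecan 1 proteoglycan, fell by 0.55 (SE 0.07, limma adjusted p = 0.000171). Sgce, the epsilon sarcoglycan of the dystroglycan complex, fell by 1.15 (SE 0.10, limma adjusted p = 1.03e-05). Bcam, the Lutheran receptor of laminin alpha 5, rose by 5.03 (SE 0.63, limma adjusted p = 0.000109) with 163 reads in the Zfx-KO-labelled libraries and 3 in the controls. Without control replicate 1 it rose by 5.72. Dmd, dystrophin, rose by 4.90 (SE 0.54, limma adjusted p = 5.12e-05). Sdc4 had a difference of 0.024 (SE 0.05, limma adjusted p = 0.758) and was called lower with equal medians (-0.19, adjusted p = 0.0349).

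Integrin ligands other than laminins had 21 of 30 tested higher and 4 lower, beside 24.9% and 19.5% of all genes. The median difference was 1.05. Col1a1, Col1a2 and Postn of this list were also counted among the fibroblast markers above, and Cdh1 among the epithelial ones. Svep1 and Tnc, ligands of alpha 9 integrins, rose by 9.14 and 7.78, Col1a1, a ligand of the collagen receptors, by 5.66, and Postn, a ligand of alpha v integrins, by 4.64 (limma adjusted p = 8.58e-09, 1.06e-09, 1.23e-08 and 2.61e-09). Svep1 had 4830 reads in the Zfx-KO-labelled libraries and 5 in the controls and Tnc 21891 reads in the Zfx-KO-labelled libraries and 88 in the controls. Fn1, the fibronectin bound by alpha 5 beta 1 and alpha v integrins, had 14.65, 14.91 and 14.82 log2 CPM in the Zfx-KO-labelled libraries, against 13.34, 13.47 and 13.52 in the controls. It rose by 1.35 (SE 0.11, limma adjusted p = 7.3e-06), a call lost with quantile normalization alone. That scaling gives genes of the same rank the same value and set Fn1 equal in the groups, so it could not test the rise. Col3a1 was called higher by 0.30 (SE 0.11, limma adjusted p = 0.0452). The call ended in 12 of 18 alternatives, each library left out except control replicate 3 among them (adjusted p = 0.0538 to 0.193). Quantile normalization, also among the 12, set Col3a1 equal in the groups too. Fbn1, fibrillin 1, rose by 0.40 (SE 0.09, limma adjusted p = 0.00468), which equal medians ended (adjusted p = 0.13). Thbs2, thrombospondin 2, fell by 0.97 (SE 0.14, limma adjusted p = 0.000365).

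The cytoplasmic genes of integrin adhesions had 17 of 48 tested higher and 15 lower, beside 24.9% and 19.5% of all genes. Their median difference of 0.11 was close to the 0.094 of all genes tested. Tln2, the second talin, which binds beta subunit tails, had 7.77, 7.89 and 7.92 log2 CPM in the Zfx-KO-labelled libraries, against 6.41, 6.61 and 6.66 in the controls. It rose by 1.30 (SE 0.08, limma adjusted p = 7.49e-07). Tns1, a tensin that links integrins to actin, rose by 2.20 (SE 0.13, limma adjusted p = 9.4e-07). Parvb, beta parvin of the complex with integrin-linked kinase, had 6.30, 5.95 and 6.14 log2 CPM in the Zfx-KO-labelled libraries, against 7.49, 7.29 and 7.46 in the controls. It fell by 1.28 (SE 0.09, limma adjusted p = 2.53e-06). Ptk2, focal adhesion kinase, fell by 0.76 (SE 0.06, limma adjusted p = 3.73e-06). Of the highest genes, Tns3 rose by 0.29 (SE 0.06, limma adjusted p = 0.00221), which equal medians ended (adjusted p = 0.406). Flna, Actn1 and Tln1 had differences of -0.035, 0.16 and 0.063 (limma adjusted p = 0.715, 0.0723 and 0.461). With equal medians these 3 were at -0.25, -0.054 and -0.15.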

How the data were processed

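RNA of sorted MC38 tumor cells was measured in 6 libraries, 3 per genotype label; libraries were made from 150 pg of cDNA and sequenced as single 50-base reads, per the labels' protocols. The authors deposited one table of log2 CPM values for 52636 genes with merged exon lengths; the builds GRCh38 and mm10 are listed in the submitters' processing notes, and the sources used here do not name the aligner, the counter or the use of strand. The deposited log2 values decoded as log2 of (reads plus prior) scaled to library size, with a mean prior of 1 read, and the whole reads recovered from them were whole within 0.05 for 100% of values under 2000 reads. Depth, the sum of these recovered reads over all genes, was 37763096 to 65050909 reads. Ratios of reads carry 95% exact intervals that cover counting error only. Reads per kilobase scaled to library size (RPKM) were computed from these reads and the deposited exon lengths, which count the exons of all isoforms.

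Differences were tested on the deposited log2 values with limma 3.58.1 in R 4.3.3 (intensity trend, Benjamini-Hochberg adjustment), for the 20094 genes above the floor in at least 3 libraries and with a mean at least 1 log2 unit above it, and the test was checked on simulated data. The members and gene lists were chosen with earlier results of these data known. Members whose higher group mean was at least 0 log2 CPM or that were called are described with their values per library; of the other lists, the 4 genes with the smallest p and the 4 with the highest level are named. Chromosomes came from GENCODE M21 (GRCm38), where all 38 members were found, 26 with the same start and end. Promoter windows came from RefSeq (GRCm38.p6). The values of 1 member, which the counts include, are not reported here. The alternatives covered scaling, filter, prior, weights, thinned reads, voom on the recovered reads and leaving out libraries.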

Additional observations from a re-analysis of the deposited data

How the results depend on the processing

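Of the 24 members called, 17 kept their call in every one of their 17 or 18 alternatives, and 0 of the 24 changed sign. The precision is limited by the 3 libraries per group, and members with under 100 reads in a group (such as Lamc3, Lamb3, Lama1 and Itga2) by counting. No paired analysis was possible because the labels give no replicate numbers; those used here only name the libraries and pair none across groups.

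All genes called higher numbered 5003, against 3224 with equal medians and 3257 when replicate 1 of both groups, the libraries highest in leukocyte markers, was left out, an alternative chosen after seeing the data. All genes called lower numbered 3924, against 6357 with equal medians. The share of calls that were higher was 56.0%, against 33.6% with equal medians and 47.5% with quantile normalization. Laminin genes called lower numbered 1, against 3 with equal medians and 2 with each of quantile normalization, sample weights and voom. Leaving out 1 library at a time gave 3838 to 5041 genes higher and 3274 to 3714 lower, 8 to 11 integrin genes higher and 4 lower, and 5 to 7 laminin genes higher and 1 lower.

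Signs changed for genes that were not called. With equal medians the differences were -0.0018 for Itga5, -0.066 for Itgam, -0.050 for Itgb2, -0.14 for Itgb5, -0.0045 for Itgb7, -0.11 for Lama3, -0.074 for Hspg2, -0.19 for Sdc4, -0.054 for Actn1 and -0.15 for Tln1. With quantile normalization they were -0.45 for Itgam, -0.33 for Itgb7, -0.44 for Lama3 and 0.083 for Lamb2. With sample weights Itgam was at -0.32 and Itgb5 at -0.0088, and with voom Sdc4 was at -0.0087. With 1 library left out at a time, the differences ranged from -0.55 to 0.79 for Itgam, -0.092 to 0.0060 for Itgav, -0.67 to 0.46 for Itgax, -0.0084 to 0.34 for Itgb2, -0.077 to 0.19 for Itgb5, -0.022 to 0.30 for Lama3, -0.069 to 0.023 for Lamb2 and -0.0078 to 0.049 for Sdc4. The cause was not tested for any of these.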
